A study of Mus musculus with 4 samples.

Results

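The histone genes and histone variants on the array were read from 62 probe sets, out of 45037 probe sets that were not controls. A probe set was taken when a gene symbol of the platform annotation, or an older symbol of the same gene in the RefSeq gene table, began with Hist1h to Hist4h, H2af, H1f or H3f3. The annotation used here mostly carries the newer histone names, so 16 probe sets matched by their listed symbol and 46 only through an older one (H2aw, for example, was Hist3h2a). The 62 probe sets name 70 histone genes: 6 of linker histone H1, 13 of clustered H2A, 8 of H2A variants, 15 of H2B, 12 of clustered H3, 3 of H3.3 and 13 of H4. Of the probe sets 35 have 1 symbol and 27 have several, since the coding sequences of these genes are nearly alike. A value from a probe set with several symbols cannot be assigned to one of its genes, and a probe set with 1 symbol may still read a close relative.

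Histones are the proteins on which nuclear DNA is wound. A pair each of H2A, H2B, H3 and H4 forms the nucleosome core, and H1 binds the linker DNA where it enters and leaves the core. Most copies are encoded by intronless genes in clusters, which are transcribed in S phase and whose mRNAs end in a stem-loop rather than a poly(A) tail. Some clustered genes also give polyadenylated transcripts, which have been described in cells that leave the cycle or differentiate. Replacement variants such as H2A.Z, macroH2A and H3.3 are encoded by separate genes with polyadenylated mRNAs and are deposited throughout the cell cycle. Standard 3-prime expression arrays prime cDNA on poly(A) tails, so an array of this kind reads stem-loop mRNAs poorly. The primer used here is not given in the sources, and which transcript form each probe set read was not tested.

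The arrays read RNA of leukemic cells with the MLL-AF9 fusion gene, taken from the marrow of recipient mice of strain C57BL/6. There were 2 samples labelled Ezh2 KO and 2 labelled wild type. Ezh2 is the enzyme of the Polycomb complex PRC2 that methylates histone H3. For the Ezh2 KO samples the marrow given to the recipients is labelled Ink4a-/-Arf-/-, while their genotype entry names Ezh2 KO. The marrow of the wild-type samples is labelled wild type. If the marrow label holds, the groups also differ at Ink4a-Arf, and that difference cannot be told apart from the one in Ezh2. Group names here follow the genotype entry. Age, sex, Cre driver and whether animals were pooled are not given in the sources used here. Labelled cRNA was made from RNA equivalent to 10000 cells, and the labels do not say whether replicates are different mice. If they are not, the p-values here cover technical spread alone.

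The single Ezh2 probe set gave 4989 and 4991 intensity units in Ezh2 KO and 5216 and 5315 in wild type, a log2 difference of -0.08 (SE 0.06, limma adjusted p = 0.555). Where it lies with respect to the deletion was not analysed here, so it checks nothing about the genotype. The myeloid and MLL-AF9 markers Ptprc, Itgam, Mpo, Elane, Prtn3, Ctsg, Cebpa, Spi1, Kit, Csf3r, Hoxa9 and Meis1 all had signal, from 528 to 36399 units over the 4 arrays. Of these Itgam rose (log2 0.74, adjusted p = 0.00109 in limma), while Ctsg and Cebpa fell by 0.25 and 0.63 on the log2 scale (adjusted p = 0.0424 and 0.0116), and the part of such a shift in the histone values was not tested. The erythroid markers summed to 264 and 250 units in Ezh2 KO and 262 and 234 in wild type, with Hba-a1 at most 8.93. Summed T and NK cell markers lay at 274 and 115 in Ezh2 KO and 172 and 99.0 in wild type, and the stromal and endothelial ones at 570 and 735 in Ezh2 KO and 681 and 604 in wild type. The B cell markers summed to 987 and 1169 in Ezh2 KO and 1097 and 1006 in wild type, most of it from Cd79b at 739 to 848, while Cd79a was at most 22.0. None of the 18 tested markers of other cell types passed the threshold in limma (2 stromal and endothelial ones had an unadjusted p under 0.05, 1 in each direction), and none of those with a probe set was listed at 0.

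Promoters of 6 clustered histone genes are printed here. H1f2, H2bc8, H2ac19, H2aw and H3c4 are each named by a probe set that rose in Ezh2 KO. H4c11 is from H4, whose probe sets had no call. Each line holds the 250 bases upstream of the gene's start, 5′ to 3′ on the gene's strand, from RefSeq with build GRCm38.p6. Capitals mark 4 motifs known from histone promoters, searched on both strands without allowing a mismatch: the CCAAT box (CCAAT), the TATA box (TATAAA), the octamer of H2B promoters (ATTTGCAT) and the H1 box (AAACACA).
H1f2: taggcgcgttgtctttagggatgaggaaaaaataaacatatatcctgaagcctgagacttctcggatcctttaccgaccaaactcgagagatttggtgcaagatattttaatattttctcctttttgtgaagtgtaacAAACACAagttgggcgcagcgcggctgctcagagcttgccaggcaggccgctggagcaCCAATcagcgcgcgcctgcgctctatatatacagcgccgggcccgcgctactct
H2bc8: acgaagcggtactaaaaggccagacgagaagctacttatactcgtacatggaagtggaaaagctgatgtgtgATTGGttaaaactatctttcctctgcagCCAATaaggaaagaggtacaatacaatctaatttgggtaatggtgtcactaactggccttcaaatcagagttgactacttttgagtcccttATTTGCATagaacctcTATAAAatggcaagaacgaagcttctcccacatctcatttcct
H2ac19: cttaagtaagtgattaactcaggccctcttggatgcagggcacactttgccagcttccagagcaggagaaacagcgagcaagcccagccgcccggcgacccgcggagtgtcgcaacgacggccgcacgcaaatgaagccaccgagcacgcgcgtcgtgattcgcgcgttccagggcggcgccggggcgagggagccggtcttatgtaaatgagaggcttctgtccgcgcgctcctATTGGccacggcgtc
H2aw: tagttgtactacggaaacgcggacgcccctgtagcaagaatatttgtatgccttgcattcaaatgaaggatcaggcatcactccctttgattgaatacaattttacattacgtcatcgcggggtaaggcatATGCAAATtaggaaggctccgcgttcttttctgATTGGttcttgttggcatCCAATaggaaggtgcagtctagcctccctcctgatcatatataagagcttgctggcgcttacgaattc
H3c4: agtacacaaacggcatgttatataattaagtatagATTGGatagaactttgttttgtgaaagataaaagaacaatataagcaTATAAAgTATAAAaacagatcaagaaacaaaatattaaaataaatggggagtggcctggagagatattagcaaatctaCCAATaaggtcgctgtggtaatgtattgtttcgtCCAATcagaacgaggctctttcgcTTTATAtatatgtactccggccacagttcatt
H4c11: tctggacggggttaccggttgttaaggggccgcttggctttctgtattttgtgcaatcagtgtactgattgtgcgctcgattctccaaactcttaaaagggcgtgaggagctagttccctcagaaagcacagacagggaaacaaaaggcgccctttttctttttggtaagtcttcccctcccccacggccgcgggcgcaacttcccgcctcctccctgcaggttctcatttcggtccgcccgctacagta
The windows lie at chr13:23738557-23738806, plus strand for H1f2, chr13:23571150-23571399, plus strand for H2bc8 and chr3:96240375-96240624, minus strand for H2ac19. Those of H2aw, H3c4 and H4c11 lie at chr11:58954435-58954684, plus strand, chr13:23575513-23575762, plus strand and chr13:21734784-21735033, plus strand.

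In H1f2 the H1 box began 112 bases and the CCAAT box 54 bases upstream of the start. H2bc8 held CCAAT boxes at 178 and 150 bases, the octamer at 59 and the TATA box at 43. H2aw held CCAAT boxes at 86 and 68 bases and the octamer at 119, H3c4 had CCAAT boxes at 215, 90 and 56 bases and TATA boxes at 168, 161 and 32, and H2ac19 had 1 CCAAT box at 15 bases. H4c11 held none of the 4 motifs, as did 4 of the 12 H4 windows including its own, while the other 8 held a CCAAT or TATA box. A promoter window was found for 62 of the 70 genes (63 windows, since H2bc6 has 2). The CCAAT box stood in 13 of 13 clustered H2A windows, 13 of 13 H2B windows and 8 of 10 clustered H3 windows, but in 3 of 12 H4 windows (25.0%), against 33.8% of all 32851 RefSeq windows of this length. The octamer stood in 5 of the H2A and 4 of the H2B windows, against 1.6% of all windows. The H1 box stood in 3 of 6 H1 windows (all windows, 6.25%). The TATA box stood in 6 of 12 H4, 4 of 13 clustered H2A, 5 of 13 H2B and 4 of 10 clustered H3 windows (all windows, 12.4%). H2A variant and H3.3 genes held such motifs too, with the CCAAT box in 3 of 6 and 2 of 3 windows. The octamer, the H1 box and the TATA box each stood in 1 of 3 H3.3 windows. A match is a description of the sequence only, and neighbouring H2A and H2B genes that are read in opposite directions share much of 1 window.

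A larger share of histone probe sets than of all probe sets was higher in Ezh2 KO, with calls in H1, clustered H2A, H2B, clustered H3 and H3.3. Several calls were of the same gene or of overlapping gene lists. The brightest probe sets of H1 and H2B were called. Those of clustered H2A, clustered H3, H3.3 and H4 were not (log2 0.05, 0.21, 0.06 and 0.05). Values were tested as log2(intensity + 16) with limma over all 31526 probe sets whose mean intensity passed 21.9 units, and p-values were adjusted over that whole table. Of the 62 histone probe sets 57 entered the test. At a limma adjusted p under 0.05, 13 of them (22.8%) were higher in Ezh2 KO and 0 were lower. At an unadjusted p under 0.05 the counts were 27 higher and 1 lower, where 11.5% of all probe sets were higher and 9.51% lower at that p. At the adjusted threshold 3.91% of all probe sets tested were higher and 3.39% lower. Brighter probe sets are called more often: above a mean of 500 units 10 of 30 histone probe sets (33.3%) were higher, against 7.20% of all probe sets that bright. The median log2 difference of the 57 was 0.21, against 0.036 for all probe sets tested, and 49 of the 57 were positive (all probe sets, 55.1%). Both Ezh2 KO arrays lay above both wild-type arrays for 35 of the 57 (61.4%), where 27.9% of all probe sets did so, and both lay below for 3, where 21.7% of all did so. With 1 probe set kept per gene 6 of 21 histone genes were higher (all genes, 5.63%), and with the filter at the 50th percentile 14 of 48 probe sets were (all probe sets, 6.32%).

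Each pairing of 1 Ezh2 KO array with 1 wild-type array gave the same direction, but the pairings share arrays and are not separate repeats. Between 44 and 48 of the 57 probe sets were higher in the Ezh2 KO array, with medians of 0.20 to 0.35, against 49.8% to 57.5% of all probe sets. Between the Ezh2 KO arrays themselves 30 of 57 were higher in replicate 1, and between the wild-type arrays 28 of 57. In bulk RNA of this kind fewer cells of a type and less RNA per cell cannot be told apart, nor can more cells in S phase and more histone mRNA per cell. Without a prior variance that follows intensity, limma called 0 of all probe sets and 0 of the histone probe sets, although 4978 and 19 had an unadjusted p under 0.05. Centring each array on its median lowered every log2 difference by 0.07 and left 43 of 57 positive, where 45.2% of all probe sets were. The split of all calls then moved to 837 higher and 1662 lower, in place of 1234 higher and 1069 lower.

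**Figure D1:**
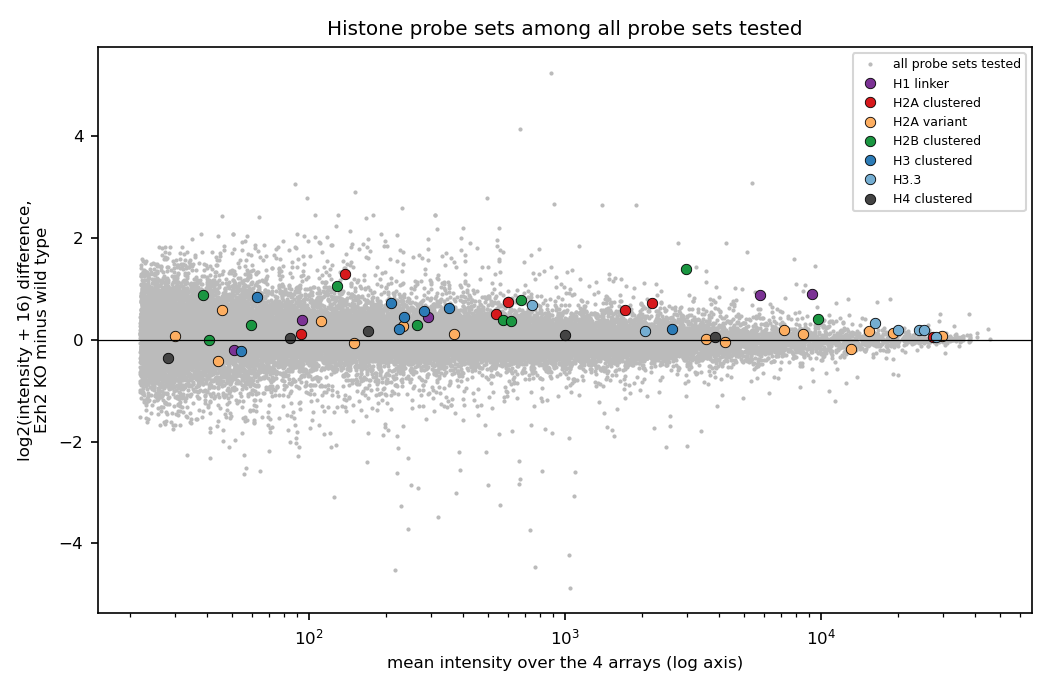
Log2 difference (Ezh2 KO minus wild type, on intensity plus 16) against mean intensity over 4 arrays on a log axis, for all 31526 probe sets tested (grey) and the 57 histone probe sets (coloured by class). Of the histone points 49 lie above 0, and they span -0.42 to 1.39.

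Linker histone H1 was led by H1f2 (older name Hist1h1c), a somatic subtype of H1. Its brightest probe set, 1416101_a_at, read 12553 and 11556 units in Ezh2 KO, against 6616 and 6237 in wild type. Both Ezh2 KO values were well above both wild-type values, a 1.87-fold difference (log2 0.91, SE 0.07, limma adjusted p = 8.68e-05). A further H1f2 probe set, 1436994_a_at, gave 7121 and 7940 units in Ezh2 KO and 3701 and 4445 in wild type, 1.85-fold higher (log2 0.89, SE 0.09, limma adjusted p = 0.000645). So 2 probe sets of H1f2 changed by nearly the same factor. Its last probe set, 1438204_at, lay just below the filter at a mean of 21.6 units and was not tested. H1f4 (Hist1h1e), another somatic H1, had 343 and 331 units in Ezh2 KO against 202 and 287 in wild type. Its arrays did not overlap, but the difference did not pass (log2 0.45, SE 0.18, limma adjusted p = 0.174). H1f10, the separately encoded H1X, read 93.8 and 116 in Ezh2 KO and 121 and 46.6 in wild type, with overlapping groups (log2 0.38, 95% interval -0.44 to 1.20), and its sign turned to -0.18 without wild-type replicate 2. The germ cell subtypes were dim: testis H1f6 averaged 46.1 ± 1.59 units in Ezh2 KO and 55.6 ± 8.77 in wild type (SD, n = 2 each, log2 -0.20, adjusted p = 0.800 in limma). The oocyte form H1f8 and both probe sets of the spermatid form H1f7 stayed below the filter.

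Clustered H2A genes were higher in part. H2aw, the lone H2A gene of the small cluster on chromosome 11, had 203 and 201 units in Ezh2 KO at 1455712_at, against 78.8 and 68.3 in wild type. The Ezh2 KO arrays were nearly equal and far above the wild-type ones, 2.44-fold higher (log2 1.29, SE 0.21, limma adjusted p = 0.00646). At 1435866_s_at the same gene read 696 and 810 in Ezh2 KO and 438 and 449 in wild type (1.67-fold, limma adjusted p = 0.00490). The probe set shared by H2aw and Trim17 had a log2 difference of 0.51 that did not pass (adjusted p = 0.0833 in limma), with groups that did not overlap. H2ac19 (Hist2h2aa2), which has a near-identical copy in H2ac18 on chromosome 3, gave 2713 and 2717 units in Ezh2 KO at 1418367_x_at, against 1668 and 1624 in wild type. The replicates of each group differed little, and the difference was 1.64-fold (log2 0.72, SE 0.07, limma adjusted p = 0.000465).

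A second H2ac19 probe set, 1418366_at, read 1754 and 2392 in Ezh2 KO and 1414 and 1312 in wild type (log2 0.58, SE 0.13, limma adjusted p = 0.0274). There Ezh2 KO replicate 2 stood apart, and without it the log2 difference was 0.36 in place of 0.58 (limma adjusted p = 0.0584). That call was also lost with median centring, without the filter and without either wild-type array. The brightest H2A probe set, 1438009_at, names 10 clustered genes including H2ac23, H2ac13 and H2ac4. It gave 28865 and 26815 units in Ezh2 KO and 27194 and 26476 in wild type, with overlapping groups and a log2 difference of 0.05 (95% interval -0.09 to 0.19, adjusted p = 0.713 in limma), and its sign turned with median centring. The probe set for H2ac19 and H2ac18 together was dim and did not pass (log2 0.11, SE 0.25).

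H2B and H2aw held the largest log2 differences among the histone probe sets, and their order depended on the setting. H2B led in the main fit, while H2aw led with a pseudocount of 1 (H2aw 1.45, H2B 1.40) and without wild-type replicate 1 (H2aw 1.37, H2B 1.28). The probe set 1418072_at, shared by H2bc8, H2bc6 and H2bc4 of the chromosome 13 cluster (older names Hist1h2bg, Hist1h2be and Hist1h2bc), had 4382 and 4254 units in Ezh2 KO, against 1512 and 1774 in wild type. Both Ezh2 KO values were far above both wild-type ones, 2.62-fold by the fit (log2 1.39, SE 0.09, limma adjusted p = 3.00e-05). For the same 3 genes 1440330_at had 58.4 and 50.2 in Ezh2 KO and 28.1 and 17.2 in wild type, and 1445565_at had 47.1 and 88.4 in Ezh2 KO and 39.8 and 62.3 in wild type. These dim probe sets were positive too, at log2 0.88 and 0.30, and neither passed (adjusted p = 0.243 and 0.724 in limma).

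Probe sets that read many H2B genes also rose, but their gene lists overlap. The list of 11 genes holds H2bc8, H2bc6, H2bc4 and every gene of the list of 6. Which of the genes carried the rise was not tested. The one naming 11 genes, 1452540_a_at, had 11444 and 10830 units in Ezh2 KO and 8476 and 8295 in wild type, 1.33-fold higher (log2 0.41, SE 0.06, limma adjusted p = 0.00468). The one naming 6 genes, 1425398_at, had 934 and 774 in Ezh2 KO and 524 and 457 in wild type, 1.71-fold higher (log2 0.78, SE 0.12, limma adjusted p = 0.00581). Both lists include H4bc24, which despite its name is an H2B gene (Hist1h2br). H2bu2 and its neighbouring pseudogene H2bu1-ps, beside H2aw on chromosome 11, shared 1449482_at with 148 and 214 units in Ezh2 KO and 86.2 and 68.6 in wild type. The groups were clear of each other at 2.09-fold (limma adjusted p = 0.0338), but the call was lost without the filter and without Ezh2 KO replicate 2, wild-type replicate 1 or wild-type replicate 2. H2bc21 (Hist2h2be, chromosome 3) had 646 and 652 in Ezh2 KO and 480 and 507 in wild type at 1447854_s_at. Its replicates lay close together, yet the difference stayed short of the threshold (log2 0.38, SE 0.10, limma adjusted p = 0.0604), as did its other probe set (log2 0.29). The first passed when only probe sets above the 50th percentile were tested (adjusted p = 0.0463 in limma) and with 1 probe set per gene (adjusted p = 0.0396). H2bc22 did not pass either (log2 0.36, adjusted p = 0.158 in limma), and H2bc18 at about 40 units showed a log2 difference of -0.0013 with an SE of 0.45.

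Of the 8 clustered H3 probe sets 7 were positive (all probe sets, 55.1%) and 1 passed (3.91% of all probe sets were higher). That one was H3c4 (Hist1h3d), with 420 and 438 units in Ezh2 KO and 262 and 288 in wild type, 1.53-fold higher (log2 0.62, SE 0.13, limma adjusted p = 0.0226). The H3c4 call was lost without Ezh2 KO replicate 2 (adjusted p = 0.0718) or without wild-type replicate 1 (adjusted p = 0.0938), with the log2 difference at 0.59 and 0.55 in limma. H3c7 and H3c11 had groups that did not overlap and log2 differences of 0.56 and 0.44 that did not pass (adjusted p = 0.0744 and 0.129 in limma). The largest positive difference below the threshold in this class was that of H3c10 and H3c2, at 101 and 69.7 units in Ezh2 KO and 37.1 and 43.4 in wild type (log2 0.84, SE 0.32, adjusted p = 0.168 in limma). The brightest, 1460314_s_at with 12 genes, read 2676 and 2941 in Ezh2 KO and 2455 and 2390 in wild type (log2 0.21, adjusted p = 0.143 in limma). A dim probe set naming 8 H3 genes, 1422155_at, was the negative one (log2 -0.23, SE 0.33).

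H4 had no probe set past the threshold. All 5 H4 probe sets name the same 13 genes. In limma 0 of them passed (0 at an unadjusted p under 0.05 too), where 7.31% of all probe sets did (21.1% unadjusted). With 5 probe sets this count does not set H4 apart from the whole table. Their log2 differences ran from -0.35 to 0.17, with a median of 0.05. The brightest, 1422948_s_at, had 4043 and 3796 units in Ezh2 KO and 3910 and 3673 in wild type. Its groups overlapped, and the 95% interval of the log2 difference ran from -0.11 to 0.21 (adjusted p = 0.777 in limma), with the sign turned by median centring. The next, 1424854_at, had 1035 and 1029 in Ezh2 KO and 1008 and 933 in wild type (log2 0.09, 95% interval -0.11 to 0.29). The dimmest member that entered the test was also an H4 probe set, 1422947_at, at a mean of 28.2 units. Clustered H2A, H2B and H3 together had 9 of 25 probe sets higher (36.0%, all probe sets 3.91%) and a median log2 difference of 0.51. Both Ezh2 KO arrays lay above both wild-type arrays for 19 of the 25 (all probe sets, 27.9%). The difference between H4 and these classes was not tested, and their probe sets share genes and sequence.

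**Figure D2:**
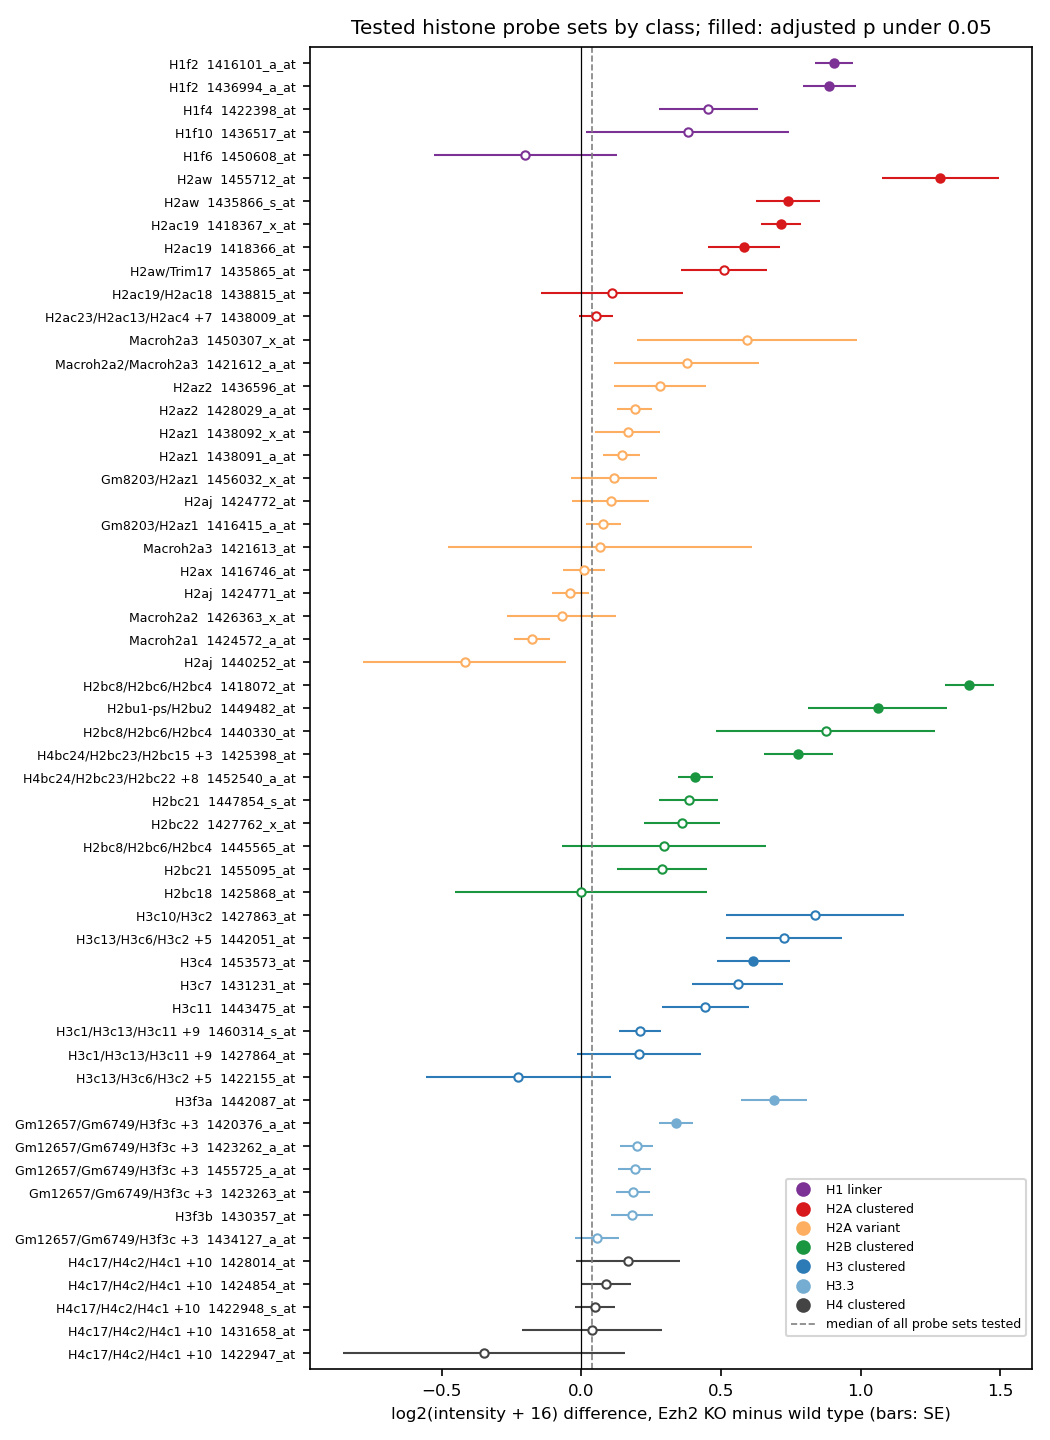
Log2 difference (Ezh2 KO minus wild type) with its SE for each of the 57 tested histone probe sets, grouped by class, with filled points at a limma adjusted p under 0.05 and the dashed line at the median of all probe sets, 0.036. Filled points appear in H1, clustered H2A, H2B, clustered H3 and H3.3, from 0.34 to 1.39, and none among the H2A variants or H4.

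The H2A variants passed in 0 of 15 tested probe sets in limma, where 7.31% of all probe sets did in either direction. At an unadjusted p under 0.05 there were 2, 1 in each direction, where 21.1% of all probe sets passed. With 15 probe sets neither count sets the variants apart from the whole table. Their median log2 difference was 0.11, with a range from -0.42 to 0.59. H2ax, the variant phosphorylated at DNA breaks, had 3758 and 3354 units in Ezh2 KO and 3488 and 3571 in wild type, with overlapping groups. Its log2 difference was 0.0085, with a 95% interval of -0.16 to 0.18. The H2A.Z genes had 6 probe sets with small positive differences, of which 0 passed. H2az1 at 1438091_a_at had 20954 and 19067 in Ezh2 KO and 18005 and 18182 in wild type (log2 0.14, adjusted p = 0.251 in limma), and its other 3 probe sets had log2 differences of 0.08 to 0.17, 2 of them with overlapping groups. One of these, 1438092_x_at, passed without wild-type replicate 2 (log2 0.38, adjusted p = 0.0296 in limma). H2az2 at 1428029_a_at read 7525 and 7823 in Ezh2 KO and 6707 and 6738 in wild type (log2 0.19, 95% interval 0.05 to 0.33, adjusted p = 0.105 in limma).

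MacroH2A, a variant with a large extra domain that is enriched in silent chromatin, had the negative difference closest to the threshold. Macroh2a1 gave 12820 and 11840 units in Ezh2 KO and 14060 and 13825 in wild type, so both Ezh2 KO values lay below both wild-type ones. The log2 difference of -0.18 (SE 0.06) did not pass (limma adjusted p = 0.141), while median centring gave -0.25 and a limma adjusted p of 0.0459. Macroh2a2 at 1426363_x_at had 159 and 133 in Ezh2 KO and 157 and 151 in wild type (log2 -0.07, turned to 0.045 without Ezh2 KO replicate 2). Macroh2a3 averaged 57.1 ± 9.66 units in Ezh2 KO and 33.9 ± 18.1 in wild type at 1450307_x_at (SD, n = 2 each), a difference that did not pass (log2 0.59, SE 0.39, adjusted p = 0.453 in limma). Its other probe set, 1421613_at, had a log2 difference of 0.07 (SE 0.54). The probe set shared by Macroh2a2 and Macroh2a3, 1421612_a_at, was positive at log2 0.38 with overlapping groups and did not pass (adjusted p = 0.475 in limma). H2aj, an H2A variant encoded apart from the main clusters, read 4116 and 4208 in Ezh2 KO and 4373 and 4188 in wild type at its brightest probe set (log2 -0.04, 95% interval -0.19 to 0.11). Its dimmest probe set, at 40.6 and 30.4 in Ezh2 KO and 44.4 and 61.6 in wild type, had the lowest log2 difference of all tested members, -0.42 (SE 0.36). H2al2a, of the short H2A variants of the testis, was below the filter.

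H3.3 is the replacement form of H3 encoded by H3f3a and H3f3b. It was positive in 7 of 7 probe sets (all probe sets, 55.1%), and 2 passed (3.91% of all probe sets were higher). H3f3a at 1442087_at had 1001 and 840 units in Ezh2 KO and 530 and 597 in wild type, 1.61-fold higher (log2 0.69, SE 0.12, limma adjusted p = 0.00795). The other 5 probe sets that include H3f3a are shared with H3f3b, H3f3c and predicted genes, and they gave smaller values. Of these 1420376_a_at rose, with 18010 and 18250 in Ezh2 KO and 13908 and 14766 in wild type, a 1.26-fold difference (limma adjusted p = 0.0105), lost without wild-type replicate 1 (log2 0.30, adjusted p = 0.0724). In 3 more the Ezh2 KO arrays lay above the wild-type ones at log2 0.18 to 0.20 without passing. The brightest, 1434127_a_at, had 28545 and 28845 in Ezh2 KO and 25469 and 29923 in wild type, with overlapping groups (log2 0.06, turned to -0.018 with median centring). H3f3b alone, at 1430357_at, read 2111 and 2276 in Ezh2 KO and 1952 and 1912 in wild type (log2 0.18, 95% interval 0.01 to 0.35, adjusted p = 0.212 in limma). The separate H3f3a probe set therefore gave a larger difference than any shared one, and the probe positions were not analysed here.

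**Figure D3:**
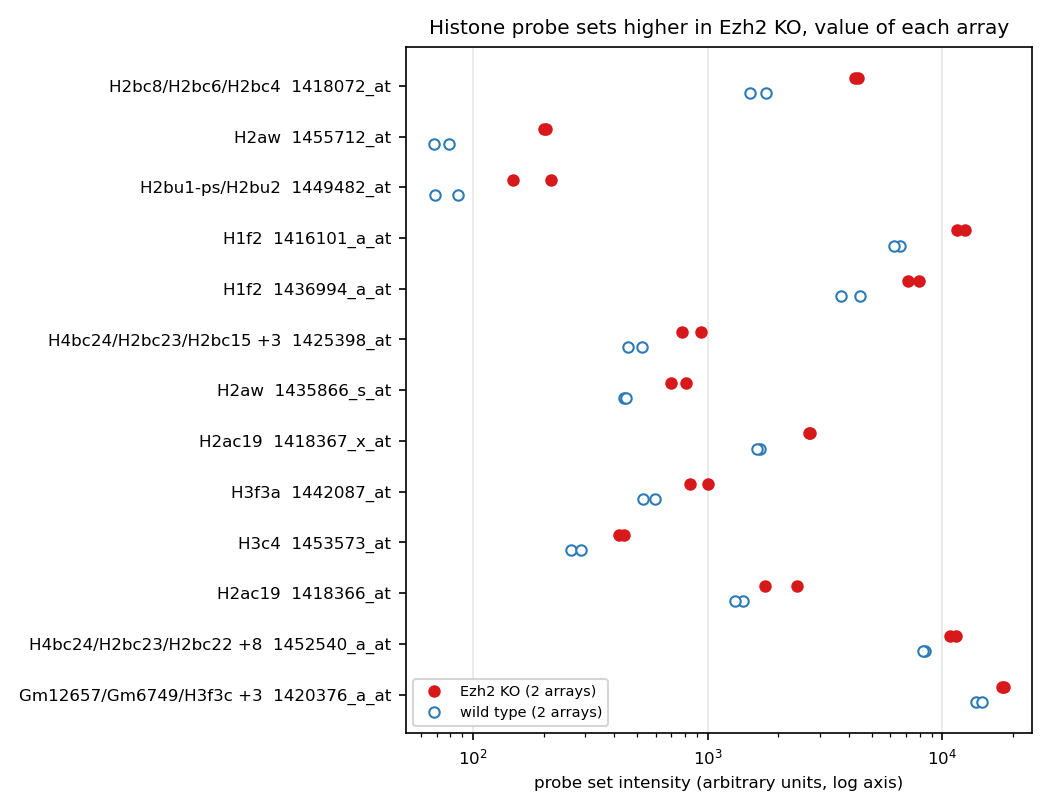
Intensity on a log axis of each array for the 13 histone probe sets that were higher in Ezh2 KO (filled, 2 arrays) than in wild type (open, 2 arrays), ordered by log2 difference. In each row both filled points lie to the right of both open points, from 4382 and 4254 against 1512 and 1774 for H2bc8/H2bc6/H2bc4 down to 18010 and 18250 against 13908 and 14766 for the H3.3 probe set 1420376_a_at.

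By chromosome, the probe sets whose clustered or H1 genes lie on chromosome 13 alone had 6 of 15 tested members higher and a median log2 difference of 0.56. Those on chromosome 3 alone had 2 of 6 higher with a median of 0.34, and those of the small chromosome 11 cluster 3 of 4 with a median of 0.90. Of all probe sets tested 3.91% were higher, with a median of 0.036. Calls were thus present in each of the 3 clusters, but both on chromosome 3 were of 1 gene, H2ac19. The calls of 1418366_at (H2ac19), H3c4 (chromosome 13) and 1449482_at (chromosome 11) were lost in some other settings. Probe sets with 1 symbol had 8 of 30 tested higher (26.7%), and those with several had 5 of 27 (18.5%), against 3.91% of all probe sets.

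None of the tested genes that handle histones passed the threshold. Histone chaperones and exchange factors carry histones to DNA and swap variants. Of 27 such genes tested 0 passed in limma, against 7.31% of all probe sets in either direction. At an unadjusted p under 0.05 there were 4, 2 in each direction, where 21.1% of all probe sets passed. Most genes of this list and of the 2 lists below were brighter than 500 units. Above that mean 778 of 10811 probe sets were higher and 792 lower at the adjusted threshold, a larger share than over all probe sets. The list had a median log2 difference of -0.048 and a range from -0.23 to 0.28. The brightest were Npm1, a nucleolar chaperone, at 19091 and 19426 units in Ezh2 KO and 19224 and 20329 in wild type, and Rbbp4, a subunit of the chaperone CAF-1 and of PRC2, at 17412 and 17677 in Ezh2 KO and 16912 and 17334 in wild type. Npm1 had overlapping groups (log2 -0.038), and Rbbp4 did not overlap but differed by log2 0.035 with an SE of 0.06.

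Genes of histone transcription and 3-prime end processing passed in 0 of 29 cases as well in limma (2 at an unadjusted p under 0.05, 1 in each direction, and 1 past the adjusted threshold with median centring), against the same shares of all probe sets, with a median log2 difference of -0.040. Slbp, the stem-loop binding protein of histone mRNA, had 9460 and 9029 units in Ezh2 KO and 8889 and 9307 in wild type (log2 0.023), and Yy1, a transcription factor, had 8062 and 8318 in Ezh2 KO and 8003 and 7911 in wild type (log2 0.041). The S phase and replication list had 2 of 29 genes higher (all probe sets, 3.91%, and 7.20% of those above 500 units). It had 2 lower (all probe sets, 3.39%) and a median of -0.035. At an unadjusted p under 0.05 it had 2 higher and 5 lower. Ccna2, cyclin A2, rose 1.28-fold to 5186 and 4741 in Ezh2 KO, against 3908 and 3821 in wild type (limma adjusted p = 0.0161), and the ribonucleotide reductase subunit Rrm2 rose 1.19-fold (limma adjusted p = 0.0427). The helicase subunit Gins1 fell by 0.36 on the log2 scale (limma adjusted p = 0.0238) and the flap endonuclease Fen1 by 0.27 (limma adjusted p = 0.0411). Without wild-type replicate 1, wild-type replicate 2 or Ezh2 KO replicate 1 the S phase list had 0 calls each. The chaperone, processing and S phase lists were put together by hand from textbook functions, and whether the share of cells in S phase differed between the groups was not tested.

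**Figure D4:**
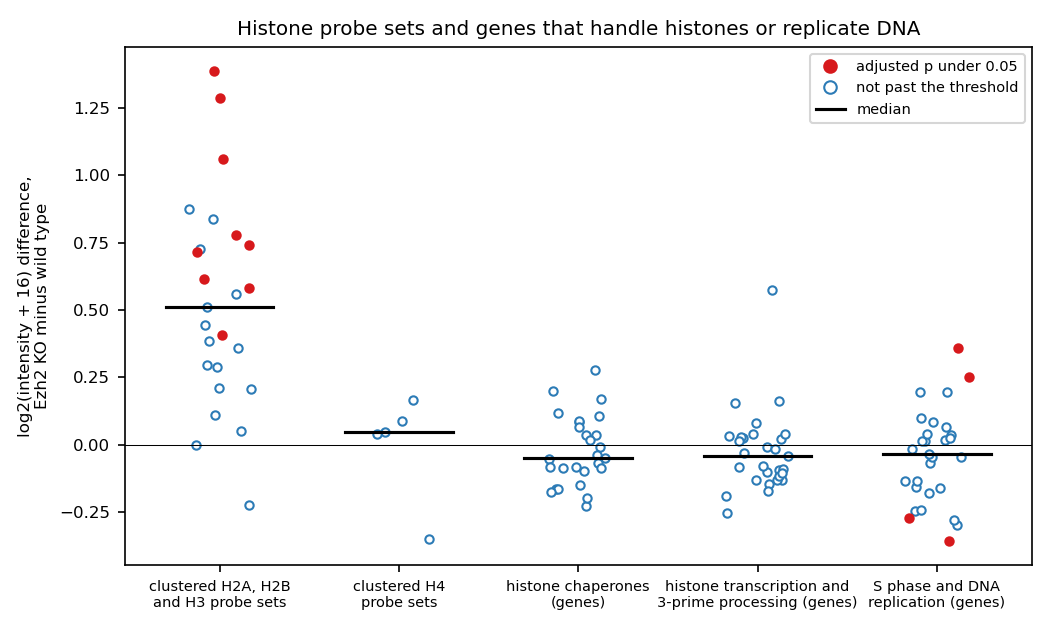
Log2 difference (Ezh2 KO minus wild type) of clustered H2A, H2B and H3 probe sets, of H4 probe sets, and of genes for histone chaperones, histone transcription and processing, and S phase, with filled points at a limma adjusted p under 0.05 and bars at the medians. The first group centres at 0.51 with 9 filled points, while the others centre between -0.048 and 0.048.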

How the data were processed

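Expression was measured on 4 Affymetrix 1-colour arrays (mouse, 45101 probe sets), 2 each of Ezh2 KO and wild-type MLL-AF9 leukemic cells. The authors deposited linear intensity values per probe set. The submitters' processing notes name Affymetrix Expression Console, and its version and algorithm are not given in the sources used. The deposited arrays each had a mean of 500 units after trimming 2% at each end and were not quantile normalized, so differences in total mRNA per cell are removed. Detection calls were not used, so signals near the filter cannot be told from background. The number of arrays limits the precision.

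The 64 control probe sets were left out. The 31526 probe sets with a mean above the 30th percentile (21.9 units) were tested as log2(intensity + 16) with lmFit and eBayes of limma 3.58.1 (R 4.3.3), its prior variance fitted as a trend on intensity, and Benjamini-Hochberg adjustment over all of them. Fold changes refer to intensity + 16. Values are means ± SD or single arrays. The test was tried on simulated data. Genes of the 3 companion lists and the markers were read at their brightest probe set with 1 symbol. The promoters and the gene table are RefSeq's, for GRCm38.p6. Named probe sets were those past the threshold, the brightest of each variant gene and class, the extremes below the threshold and those beside the filter; H3c7, H3c11, H2bc21, H2bc22, H2bc18 and further probe sets of named genes were added after their values were seen. The members and lists were chosen with earlier results of these data known. Alternatives are given in the closing part. Figures were made with matplotlib 3.10.9 in Python 3.11.15.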

Additional observations from a re-analysis of the deposited data

How the results depend on the processing

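Over 14 other settings, 9 of the 13 calls of histone probe sets held in each setting that fitted them (14 for 4 of them, 13 for 5) but the single prior variance, where limma called 0 of all probe sets, 0 histone probe sets and 0 S phase genes. Replicate numbers are shared between the groups, and the deviations of same-numbered arrays correlated at 0.04 over the probe sets. With 4 arrays this cannot show whether same-numbered samples share a batch or a source, and the main fit left the number out. With the number as a replicate block, 3715 probe sets, 20 of 57 histone probe sets (all higher) and 7 S phase genes passed. In that setting 6.28% of all probe sets were higher. Median centring gave 1 histone probe set lower (Macroh2a1), 1 gene of the transcript processing list changed and a histone median of 0.14. Without the filter 1392 probe sets and 2 S phase genes passed, with a histone median of 0.29, and the 50th percentile filter gave a median of 0.28. With 1 probe set per gene 6 histone genes were higher (median 0.38). Choosing members by listed symbol alone gave 4 of 12 higher, and members with 1 symbol gave 8 of 30 (median 0.32), against 3.91% of all probe sets. Both choices were added after seeing the data. Leaving out 1 array gave 1278 to 2130 probe sets in all, 11 to 15 histone probe sets higher, 0 lower, a histone median of 0.21 to 0.31 and 0 to 3 S phase genes.

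In other settings 10 histone probe sets gained a call in at least 1: those of H2bc21, H2bc22, H3c7, H2aw with Trim17, Macroh2a1 (lower), H2az1 1438092_x_at, an H3 probe set with 8 genes and 3 of H3.3. Differences that changed sign were short of the threshold. Median centring turned 6 of the 57: H2ax (-0.065), the H4 probe set 1422948_s_at (-0.026), the H3.3 probe set 1434127_a_at (-0.018), the H2A probe set 1438009_at (-0.021), the H4 probe set 1431658_at (-0.035) and Macroh2a3 1421613_at (-0.0067). Among the 33 probe sets refitted by name, leaving out 1 array turned the sign within ranges of -0.073 to 0.090 for H2ax, -0.82 to 0.12 for the H4 probe set 1422947_at and -0.19 to 0.045 for Macroh2a2. The ranges were -0.060 to 0.17 for 1434127_a_at, -0.18 to 0.94 for H1f10 and -0.00096 to 0.11 for 1438009_at. The causes were not tested.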
